A study of Caenorhabditis elegans with 12 samples.

Results

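Endoplasmic reticulum (ER) folding and stress genes were followed in first-stage (L1) larvae of the nematode Caenorhabditis elegans through 10 genes: hsp-3, hsp-4, enpl-1, crt-1, cnx-1, pdi-1, pdi-2, pdi-3, pdi-6 and xbp-1. They were chosen with earlier results of these data known, by a rule that uses names and no measured values: the count rows whose sequence name carries one of those symbols in the authors' result sheets were taken. All 10 were found among the 44968 features of the count files, and all 10 passed the filter on low counts that left 18028 genes. Worms of the wild-type strain N2 were maintained at 20 °C. Their embryos were put on plates at 25 °C, 5000 to a plate, and whole larvae were collected after 24 h. The series title names osmotic arrest and starvation arrest of L1 larvae. The 12 mRNA-seq libraries form 4 groups. Each holds 3 libraries, A, B and C, which the labels call biological replicates. Unfed high-salt larvae had 500 mM NaCl and no bacteria, fed high-salt larvae had 500 mM NaCl with Escherichia coli OP50 as food, unfed low-salt larvae had 100 mM NaCl and no bacteria, and fed low-salt larvae had 100 mM NaCl with OP50. No time before 24 h was sampled, so a difference from fed low-salt larvae can hold development during those hours as well as the treatment. In RNA from whole larvae, fewer cells of a type and less RNA per cell cannot be told apart.

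The ER is where secreted and membrane proteins enter the secretory pathway, fold, receive disulfide bonds and sugar chains, and are sent on or destroyed. Its lumen holds the HSP70-type chaperone BiP, the HSP90-type chaperone endoplasmin, the lectin chaperone calreticulin, and protein disulfide isomerases, which make and rearrange disulfide bonds. The lectin chaperone calnexin is bound to its membrane. When unfolded proteins build up, the membrane sensor IRE-1 cuts xbp-1 mRNA, the ligase RTCB-1 joins the cut ends, and the XBP-1 protein made from the joined form turns on chaperone genes such as hsp-4. In larvae that build a new cuticle, collagens are a large part of what the ER of the epidermis folds and exports. The deposited values count reads per gene and hold no information on the cut and joined forms of xbp-1 mRNA.

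Libraries held from 5613260 reads on genes in unfed high-salt A to 76542711 in fed low-salt C. Ribosomal RNA took 1.49% to 18.3% of them in 10 libraries, and 40.0% and 81.9% in fed high-salt B and C, which left 3148992 non-ribosomal reads in fed high-salt C. The share of reads that aligned was 38.6% in unfed high-salt A, against 70.1% to 91.3% in the other 11 libraries. Counts of the 10 genes ranged from 218 reads, for hsp-4 in fed high-salt C, to 255181 reads, for crt-1 in fed low-salt C. Levels are given as CPM, counts per 1000000 reads after TMM scaling, and differences as log2 fold changes ± their standard error (SE). The adjusted p beside a difference comes from edgeR's quasi-likelihood test, with Benjamini-Hochberg adjustment over the 18028 genes. A gene passed the test, or was called, at an adjusted p under 0.05. Among unfed low-salt libraries, C stood apart for many of the 10 genes, and where leaving it out changed a call of theirs or moved a fold by over 1.5 times, the value without it is given.

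The 10 genes were at their highest mean in fed low-salt larvae, every one of them. Per kilobase of exon, their summed level was 1251 ± 330.2 CPM per kb in unfed high-salt, 1380.2 ± 300.3 in fed high-salt, 3532 ± 1336 in unfed low-salt and 6957 ± 289.9 in fed low-salt larvae (mean ± SD, n = 3 libraries each). The high-salt libraries spanned 1034 to 1632 CPM per kb, the unfed low-salt libraries 2706 to 5073 and the fed low-salt libraries 6654 to 7232, so that these spans did not overlap. The order of the genes within a group changed too. On the scale of CPM per kb, fed high-salt larvae held xbp-1 at 307 ± 65.3 and crt-1 at 294 ± 116, ahead of pdi-3 at 206 ± 42.9 and enpl-1 at 122 ± 18.1. Hsp-3 at 117 ± 10.1 and pdi-2 at 112 ± 16.9 followed within their spread, and hsp-4 was the lowest at 22.9 ± 4.41. In fed low-salt larvae the order on the same scale was crt-1 at 2324.5 ± 74.9, pdi-2 at 1285 ± 140.4, pdi-3 at 828 ± 22.7 and hsp-3 at 741 ± 73.0. Below them, pdi-6 at 435 ± 20.7, xbp-1 at 431 ± 14.8 and enpl-1 at 422 ± 35.7 lay within their spread of each other, and cnx-1 at 109 ± 3.34 lay within that of hsp-4 at 102 ± 24.0.

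**Figure D1:**
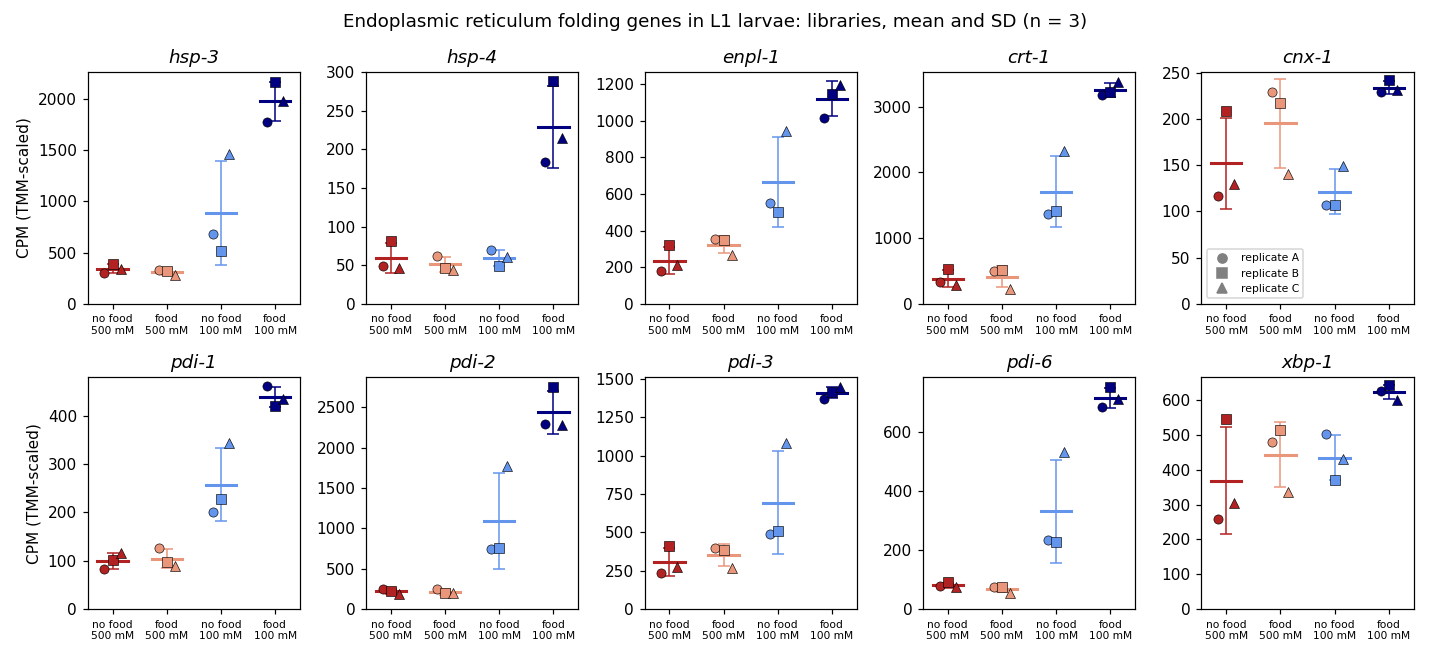
Level of each of the 10 genes in CPM (y axis, from 0, a scale of its own in each panel) in the 4 groups (x axis), with each library as a point shaped by its replicate letter, the mean as a bar and the SD as whiskers (n = 3). Fed low-salt libraries stand highest for all 10 genes, for cnx-1 by only 228.84 against 228.8 CPM. Unfed low-salt C lies above unfed low-salt A and B for most genes, and cnx-1 and xbp-1 show the smallest distance between fed high-salt and fed low-salt libraries.

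Salt with food separated the genes most. Of the 10 genes, 8 fell in fed high-salt against fed low-salt larvae and none rose, where 22.1% of all genes tested fell. Their median log2 fold change was -2.12, against 0.12 over all 18028 genes. Cnx-1 and xbp-1 did not pass the test. The libraries of the groups did not overlap for any of the 10 genes, all lower in fed high-salt larvae, where 32.1% of all genes tested were so placed, although for cnx-1 fed high-salt A at 228.8 CPM nearly met fed low-salt A at 228.84 CPM. The same 8 genes passed in each of 21 alternative fits, among them those that leave out 1 library.

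Salt without food gave a smaller count. In unfed high-salt against unfed low-salt larvae 7 of the 10 genes fell and none rose, where 11.2% of all genes fell, with a median log2 fold change of -1.37 against 0.08 over all genes. Hsp-4 joined cnx-1 and xbp-1 among those that did not pass. The 7 that fell were also the genes whose libraries did not overlap, where 16.8% of all genes tested had every unfed high-salt library below every unfed low-salt one. The count was 5 without unfed low-salt C, 5 with only those groups fitted, and 6 without unfed high-salt A or C. Over all genes 2018 fell in the main fit, 1346 without unfed low-salt C and 1173 with only those groups fitted. Without unfed high-salt A and C in turn, 2518 and 1921 fell.

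Lack of food at 100 mM NaCl lowered fewer. In unfed low-salt against fed low-salt larvae 4 of the 10 genes fell, hsp-4, hsp-3, pdi-2 and pdi-6, where 4.11% of all genes fell. All 10 had every unfed library below every fed one, where 20.5% of all genes tested were so placed. The median log2 fold change was -0.99, against 0.15 over all genes. This count depended on the libraries used: it was 1 without any of fed high-salt A or B, fed low-salt A, B or C and unfed low-salt A or B, 7 without unfed high-salt A, 9 without unfed low-salt C, and 8 without unfed high-salt A and fed high-salt C together. Over all genes the number that fell moved as well, from 741 in the main fit to between 134 and 534 in the fits that gave 1. It was 1411 without unfed high-salt A, 1394 without unfed low-salt C, and 1689 without unfed high-salt A and fed high-salt C together. Pdi-6 was also lost without fed high-salt C (adjusted p = 0.0502), and only hsp-4 passed in all 21 alternatives.

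At 500 mM NaCl, food made no difference that passed. Of the 10 genes, 0 were called in unfed high-salt against fed high-salt larvae by edgeR's quasi-likelihood test, and DESeq2 and edgeR's exact test each called 0. In that comparison 0.0777% of all genes tested were called, 14 in number. The log2 fold changes ran from -0.46 for enpl-1 to 0.25 for pdi-6, with SEs of 0.27 to 0.34, and the libraries of the groups overlapped for all 10, where 10.2% of all genes tested had no overlap.

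**Figure D2:**
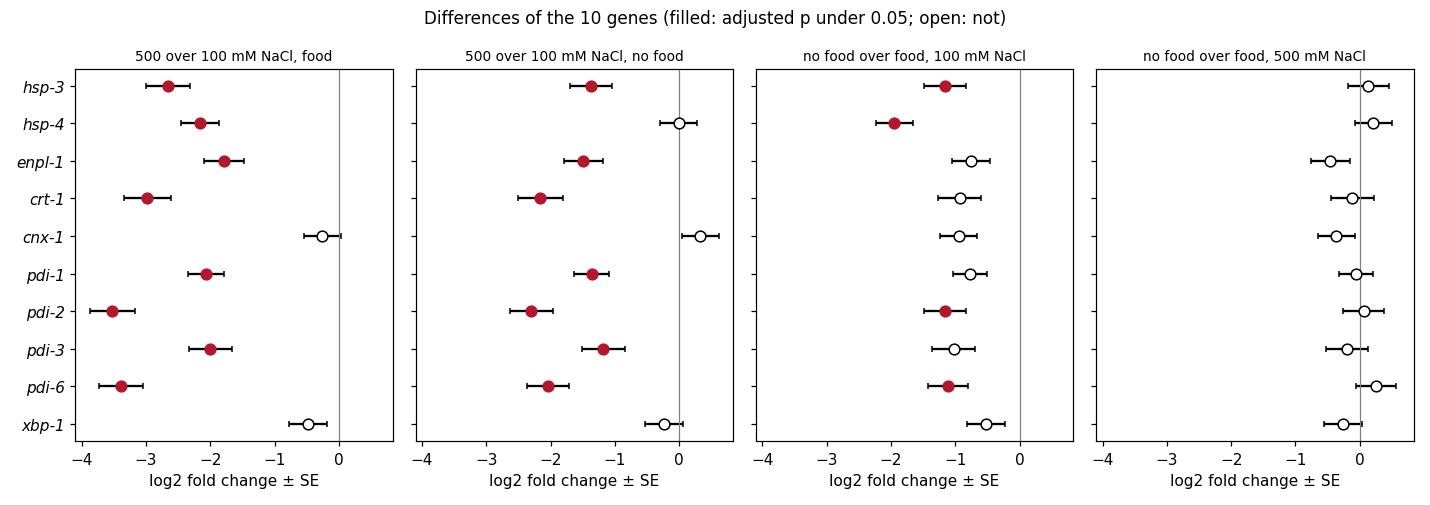
Log2 fold change ± SE (x axis) of the 10 genes (rows) in the 4 comparisons of salt or food, each panel with its own comparison and the same axis. Filled points passed at an adjusted p under 0.05 and open points did not: 8 points are filled for salt with food, 7 for salt without food, 4 for lack of food at 100 mM NaCl, none for lack of food at 500 mM NaCl.

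The BiP genes hsp-3 and hsp-4 encode the HSP70-type chaperones of the ER, of which hsp-4 is the one known for its strong induction by the unfolded protein response. Hsp-3 (C15H9.6) had 304, 388.5 and 336 CPM in unfed high-salt, 331, 325 and 282 CPM in fed high-salt, 679, 517 and 1465 CPM in unfed low-salt, and 1777, 2166 and 1982 CPM in fed low-salt libraries A, B and C. All 6 high-salt libraries were below all unfed low-salt libraries, and those were below all fed low-salt libraries. Hsp-3 was 6.32-fold lower with salt in fed larvae (log2 fold change -2.66 ± 0.34, adjusted p = 3.28e-05) and 2.59-fold lower with salt in unfed larvae (-1.37 ± 0.33, adjusted p = 0.00802). Hsp-3 was 2.23-fold lower for lack of food at 100 mM NaCl (-1.15 ± 0.33, adjusted p = 0.0435). Unfed low-salt C held 2.45 times the mean of A and B. Without it lack of food at 100 mM NaCl gave -1.84 ± 0.30 (adjusted p = 0.00155), and the salt difference in unfed larvae was -0.72 ± 0.27 on the log2 scale and did not pass (adjusted p = 0.112), nor did the difference pass when only those groups were fitted (-1.30, adjusted p = 0.0565).

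Hsp-4 (F43E2.8) was arranged differently. It had 49.0, 81.6 and 46.5 CPM in unfed high-salt, 62.3, 46.5 and 44.3 CPM in fed high-salt, 69.2, 48.5 and 60.5 CPM in unfed low-salt, and 183, 288 and 215 CPM in fed low-salt libraries. The 9 libraries with salt, without food, or both overlapped, and all of them lay below the fed low-salt libraries. With food, hsp-4 was 4.47-fold lower at high salt (log2 fold change -2.16 ± 0.30, adjusted p = 5.35e-05). At 100 mM NaCl, lack of food gave 3.85-fold lower hsp-4 (-1.95 ± 0.29, adjusted p = 0.0025), the lowest log2 fold change of the 10 genes in that comparison. Without food, the salt difference was -0.01 ± 0.29 (adjusted p = 0.990). Unfed low-salt C did not stand apart for hsp-4, at 1.03 times the mean of A and B.

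Within a library, hsp-4 and hsp-3 can be set against each other without scaling. The ratio of hsp-4 to hsp-3 reads was 0.161, 0.210 and 0.138 in unfed high-salt, 0.188, 0.143 and 0.157 in fed high-salt, 0.102, 0.0937 and 0.0413 in unfed low-salt, and 0.103, 0.133 and 0.108 in fed low-salt libraries. Every high-salt ratio exceeded every low-salt ratio, with means of 0.170 ± 0.0366 in unfed high-salt, 0.163 ± 0.0231 in fed high-salt, 0.0790 ± 0.0329 in unfed low-salt and 0.115 ± 0.0158 in fed low-salt larvae. These ratios describe unequal change of the pair and were not tested.

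Enpl-1 (T05E11.3) encodes endoplasmin, the HSP90-type chaperone of the ER lumen. It had 180, 319 and 211 CPM in unfed high-salt, 355, 348 and 269 CPM in fed high-salt, 548, 500.3 and 946 CPM in unfed low-salt, and 1015, 1148 and 1198 CPM in fed low-salt libraries. The groups at 500 mM overlapped with each other and lay below both groups at 100 mM, which did not overlap with each other. With salt, enpl-1 was 3.46-fold lower in fed larvae (log2 fold change -1.79 ± 0.31, adjusted p = 0.00033) and 2.81-fold lower in unfed larvae (-1.49 ± 0.30, adjusted p = 0.0026). Lack of food at 100 mM NaCl gave -0.75 ± 0.30, which did not pass (adjusted p = 0.128), and without unfed low-salt C -1.21 ± 0.32, which did (adjusted p = 0.0257). Reads assigned to spo-11, whose exons overlap those of enpl-1 in the WBcel235 annotation, numbered 13 to 387 per library, and the kit did not keep strand.

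The lectin chaperones bind glycoproteins during folding, calreticulin (crt-1, Y38A10A.5) as a soluble calcium-binding protein of the lumen and calnexin (cnx-1, ZK632.6) as its membrane-bound relative. Crt-1 had 326, 526 and 292 CPM in unfed high-salt, 502, 509.8 and 225 CPM in fed high-salt, 1372, 1417 and 2329 CPM in unfed low-salt, and 3174.5, 3220.4 and 3375 CPM in fed low-salt libraries. High-salt libraries were all lower than low-salt ones, and unfed low-salt libraries were all lower than fed ones. Crt-1 was 7.89-fold lower with salt in fed larvae (log2 fold change -2.98 ± 0.36, adjusted p = 2.03e-05) and 4.47-fold lower with salt in unfed larvae (-2.16 ± 0.35, adjusted p = 0.000445). Lack of food at 100 mM NaCl gave -0.93 ± 0.34, which did not pass (adjusted p = 0.0992) and which DESeq2 called (adjusted p = 0.0361). It was -1.34 ± 0.38 without unfed low-salt C and passed (adjusted p = 0.0343). The overlapping gene smut-1 had 70 to 1320 reads per library.

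Calnexin did not pass the test for salt, with or without food. Cnx-1 had 117, 209 and 130 CPM in unfed high-salt, 229, 217 and 140 CPM in fed high-salt, 107, 107 and 149.5 CPM in unfed low-salt, and 229, 242 and 231 CPM in fed low-salt libraries. Unfed and fed high-salt libraries overlapped with unfed low-salt ones. Salt gave a log2 fold change of -0.26 ± 0.29 in fed larvae (adjusted p = 0.482) and 0.33 ± 0.29 in unfed larvae (adjusted p = 0.479), neither of which passed. Under upper-quartile scaling, which moved the median of all genes for salt with food from 0.12 to 0.55, the first value was 0.15. Lack of food at 100 mM NaCl gave -0.95 ± 0.29 with an adjusted p of 0.0548, just outside the threshold, and DESeq2 and edgeR's exact test called it (adjusted p = 0.00728 and 0.022). It was -1.24 ± 0.34 without unfed low-salt C (adjusted p = 0.0281). The overlapping gene ZK632.14 had 26 to 610 reads per library.

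As a ratio of reads within a library, cnx-1 to crt-1 was 0.400 ± 0.0436 in unfed high-salt, 0.501 ± 0.105 in fed high-salt, 0.0726 ± 0.0074 in unfed low-salt and 0.0719 ± 0.00338 in fed low-salt larvae. The 6 high-salt ratios ran from 0.359 to 0.621 and the 6 low-salt ratios from 0.0642 to 0.0781, so salt separated them whether food was there or not. The ratio describes unequal change of the pair and was not tested.

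**Figure D3:**
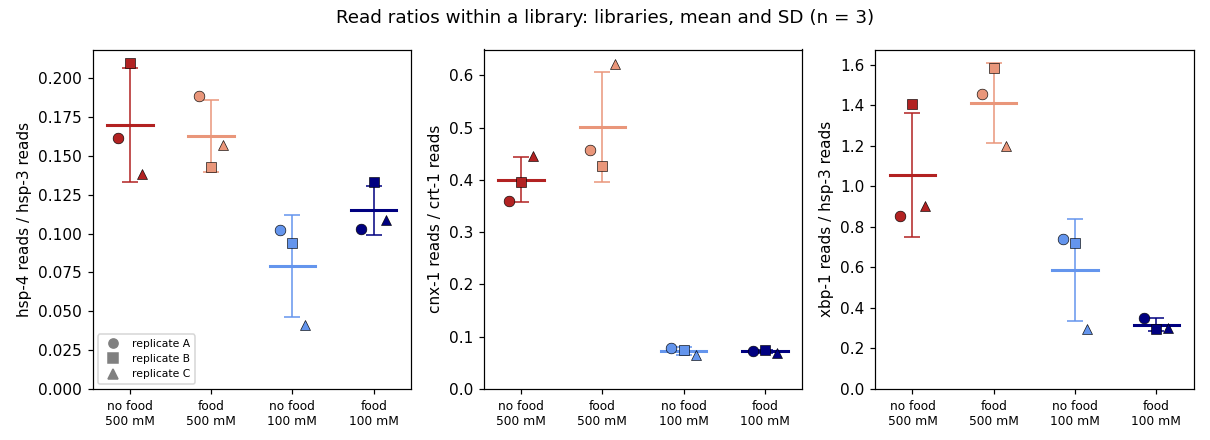
Ratios of read counts within a library (y axes, from 0) for hsp-4 to hsp-3, cnx-1 to crt-1 and xbp-1 to hsp-3 in the 4 groups (x axis), with libraries as points, means as bars and SDs as whiskers (n = 3). High-salt libraries lie above all low-salt libraries in each panel, by the widest margin for cnx-1 to crt-1.

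The protein disulfide isomerases catalyse disulfide bond formation in the lumen, and pdi-2 is also known as a subunit of the prolyl 4-hydroxylase that modifies cuticle collagens. Pdi-2 (C07A12.4) had 249, 227 and 187 CPM in unfed high-salt, 249, 194 and 193 CPM in fed high-salt, 741, 762 and 1773 CPM in unfed low-salt, and 2288, 2746 and 2282 CPM in fed low-salt libraries. The 6 high-salt libraries lay together, below all unfed low-salt ones, which lay below all fed low-salt ones. Pdi-2 had the lowest log2 fold change of the 10 genes for salt with food, 11.5-fold lower (-3.52 ± 0.35, adjusted p = 4.56e-06), and for salt without food, 4.94-fold lower (-2.30 ± 0.33, adjusted p = 0.000168). It was 2.23-fold lower for lack of food at 100 mM NaCl (-1.16 ± 0.32, adjusted p = 0.0399). Unfed low-salt C held 2.36 times the mean of A and B, and without it pdi-2 had -1.69 ± 0.27 for salt without food (adjusted p = 0.000589) and -1.81 ± 0.29 for lack of food at 100 mM NaCl (adjusted p = 0.00155). C07A12.19, whose exons overlap those of pdi-2 in the WBcel235 annotation, was not found by name among the counted features. Reads from that overlap may therefore be counted to pdi-2, which was not tested.

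Pdi-6 (B0403.4), a further disulfide isomerase of the P5 type, had 77.0, 90.7 and 73.8 CPM in unfed high-salt, 73.7, 74.3 and 55.2 CPM in fed high-salt, 233, 228 and 532 CPM in unfed low-salt, and 682, 750.2 and 712 CPM in fed low-salt libraries. Its libraries were ordered as those of pdi-2 were, with unfed low-salt C between the other unfed low-salt libraries and the fed ones. Pdi-6 was 10.5-fold lower with salt in fed larvae (log2 fold change -3.40 ± 0.34, adjusted p = 4.73e-06) and 4.11-fold lower in unfed larvae (-2.04 ± 0.32, adjusted p = 0.000363). At 100 mM NaCl pdi-6 was 2.16-fold lower without food (-1.11 ± 0.31, adjusted p = 0.0433). Without unfed low-salt C pdi-6 had -1.44 ± 0.27 for salt without food (adjusted p = 0.00219) and -1.75 ± 0.29 for lack of food at 100 mM NaCl (adjusted p = 0.00193). Pdi-2 and pdi-6 had a Pearson r of 0.995 over the 12 libraries on the log2 CPM scale, which the 4 groups and the libraries' shared scaling enter.

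Pdi-1 and pdi-3 gave smaller folds for salt, a difference between genes that was not tested. Pdi-1 (C14B1.1) had 83.0, 102 and 116 CPM in unfed high-salt, 126, 97.9 and 88.5 CPM in fed high-salt, 202, 227 and 344 CPM in unfed low-salt, and 461, 419.9 and 435 CPM in fed low-salt libraries. Pdi-3 (H06O01.1), of the ERp57 type known to work with the lectin chaperones in mammals, had 235, 408 and 275 CPM in unfed high-salt, 400.4, 388 and 268 CPM in fed high-salt, 491, 510.0 and 1079.5 CPM in unfed low-salt, and 1371, 1418 and 1447 CPM in fed low-salt libraries. For both genes high salt lay below low salt without overlap, and the fed and unfed groups at 100 mM did not overlap either. With salt in fed larvae pdi-1 was 4.21-fold lower (log2 fold change -2.07 ± 0.28, adjusted p = 4.35e-05) and pdi-3 4.01-fold lower (SE 0.34 on the log2 scale, adjusted p = 0.00028). In unfed larvae pdi-1 was 2.57-fold lower with salt (-1.36 ± 0.27, adjusted p = 0.00225) and pdi-3 2.26-fold lower (-1.18 ± 0.33, adjusted p = 0.0197). Without unfed low-salt C the unfed value of pdi-3 was -0.63 ± 0.31 and did not pass (adjusted p = 0.235), and without unfed high-salt A or C its adjusted p was 0.0526 and 0.0643. Fitted on those groups only, it was -1.10 (adjusted p = 0.0983). Neither gene passed for lack of food at 100 mM NaCl, with log2 fold changes of -0.77 ± 0.27 for pdi-1 (adjusted p = 0.0876) and -1.03 ± 0.33 for pdi-3 (adjusted p = 0.0655). DESeq2 called both (adjusted p = 0.0182 and 0.0158), and edgeR's exact test called pdi-3 (adjusted p = 0.0301). Without unfed low-salt C they were -1.15 ± 0.30 and -1.61 ± 0.33 and passed (adjusted p = 0.0226 and 0.00656).

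Xbp-1 (R74.3), the transcription factor of the response, passed in none of the comparisons. It had 259, 546 and 304 CPM in unfed high-salt, 481, 515 and 337 CPM in fed high-salt, 503, 372 and 432 CPM in unfed low-salt, and 627, 644 and 601 CPM in fed low-salt libraries. The 9 libraries with salt, without food, or both overlapped and lay below the fed low-salt libraries. Its log2 fold change was -0.49 ± 0.30 for salt with food (adjusted p = 0.199), -0.24 ± 0.30 for salt without food (adjusted p = 0.630) and -0.52 ± 0.30 for lack of food at 100 mM NaCl (adjusted p = 0.268). As a ratio to hsp-3 reads, xbp-1 stood at 1.05 ± 0.306 in unfed high-salt, 1.41 ± 0.197 in fed high-salt, 0.585 ± 0.252 in unfed low-salt and 0.318 ± 0.0304 in fed low-salt larvae. Every high-salt library had a ratio above every low-salt library.

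Osmotic arrest was set against starvation arrest by comparing fed high-salt larvae with unfed low-salt larvae, whose libraries also enter the comparisons above. In it 7 of the 10 genes fell and none rose, where 14.5% of all genes fell, and the same 7 had no overlap between the groups, where 23.3% of all genes tested were placed so. Pdi-2 was 5.15-fold lower in fed high-salt larvae (log2 fold change -2.36 ± 0.33, adjusted p = 0.000135), pdi-6 4.88-fold (-2.29 ± 0.33, adjusted p = 0.00015), crt-1 4.14-fold (-2.05 ± 0.35, adjusted p = 0.000628), hsp-3 2.84-fold (-1.50 ± 0.33, adjusted p = 0.00389) and pdi-1 2.47-fold (-1.31 ± 0.27, adjusted p = 0.00278). Enpl-1 at -1.04 ± 0.30 (adjusted p = 0.0215) and pdi-3 at -0.98 ± 0.33 (adjusted p = 0.0434) passed more narrowly: enpl-1 was lost without any of fed high-salt A, B or C, and pdi-3 in 14 of 21 alternatives. Hsp-4 at -0.22 ± 0.29 (adjusted p = 0.663) and xbp-1 at 0.03 ± 0.29 (adjusted p = 0.964) did not pass. Cnx-1 had a log2 fold change of 0.69 ± 0.29 that did not pass (adjusted p = 0.102), and it passed as higher with DESeq2 (0.77, adjusted p = 0.0203), with upper-quartile scaling (0.90, adjusted p = 0.00947) and without unfed high-salt A and fed high-salt C (0.87, adjusted p = 0.0223). Without unfed low-salt C 4 of the 10 passed, where 1784 of all genes fell in place of 2616. Hsp-3 at -0.84 ± 0.27 (adjusted p = 0.0545), enpl-1 at -0.60 ± 0.31 (adjusted p = 0.235) and pdi-3 at -0.41 ± 0.31 (adjusted p = 0.454) were lost. Pdi-2 and pdi-6 stood at -1.73 ± 0.27 and -1.67 ± 0.27 in that fit.

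The interaction asks whether the salt difference without food departs from the salt difference with food. Hsp-4 alone of the 10 genes passed, higher by 2.15 ± 0.41 on the log2 scale (adjusted p = 0.0181), the distance between -0.01 without food and -2.16 with food, where 1.56% of all genes tested passed as higher. All 10 values were above 0, with a median of 0.82 against -0.04 over all genes. Pdi-6 at 1.36 ± 0.44 (adjusted p = 0.116), hsp-3 at 1.29 ± 0.46 (adjusted p = 0.149) and pdi-2 at 1.22 ± 0.45 (adjusted p = 0.165) did not pass. The call of hsp-4 was lost without fed high-salt B (2.12, adjusted p = 0.0649), fed low-salt B (1.99, adjusted p = 0.0653) or unfed low-salt B (2.06, adjusted p = 0.0604). Without unfed low-salt C 4 of the 10 genes passed: hsp-4, hsp-3 (1.96 ± 0.38), pdi-2 (1.85 ± 0.38) and pdi-6 (1.97 ± 0.38). In that fit 723 of all genes passed as higher, in place of 282.

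Unfed low-salt C lay nearer the fed low-salt libraries than A and B did for 8 of the 10 genes. Its level over the mean of A and B was 2.45 for hsp-3, 2.36 for pdi-2, 2.31 for pdi-6, 2.16 for pdi-3, 1.80 for enpl-1, 1.67 for crt-1, 1.61 for pdi-1 and 1.40 for cnx-1, and it was 1.03 for hsp-4 and 0.986 for xbp-1. Outside the 10 genes, the translocon-associated gene trap-1 stood at 226 and 229 CPM in unfed low-salt A and B and 506 CPM in C.

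The rest of the ER machinery was followed through lists of genes, none of them holding one of the 10. Their counts of genes that fell stand beside 22.1% of all genes tested for salt with food, 11.2% for salt without food and 4.11% for lack of food at 100 mM NaCl. The counts of genes that rose stand beside 16.1%, 6.72% and 3.57% in the same order. As numbers, 3993, 2018 and 741 of all genes fell and 2905, 1212 and 643 rose. Under upper-quartile scaling 2705, 1750 and 548 fell and 4750, 1783 and 1099 rose. Without unfed high-salt A and fed high-salt C, 4349, 2577 and 1689 fell and 3293, 2042 and 1549 rose. Of 9 translocon, translocon-associated and signal peptidase genes tested, 9 fell with salt in fed larvae and 7 with salt in unfed larvae. For lack of food at 100 mM NaCl 0 of the 9 passed. Their median log2 fold change for salt with food was -2.28, beside -2.12 for the 10 genes and 0.12 for all genes. Trap-3, a translocon-associated protein gene, had 44.6 ± 4.61 CPM in fed high-salt and 281 ± 4.21 CPM in fed low-salt larvae (log2 fold change -2.66 ± 0.33, adjusted p = 2.41e-05). In fed high-salt larvae compared with unfed low-salt larvae all 9 fell as well, where 14.5% of all genes tested fell. Without unfed high-salt A and fed high-salt C the count for salt without food was 4 of 9.

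N-glycosylation and its quality control gave 6 genes that fell and 1 that rose of 7 tested for salt with food. Those that fell included ostb-1 (-2.20 ± 0.30) and stt-3 (-1.80 ± 0.31), subunits of the oligosaccharyltransferase, and the glucosyltransferase gene uggt-1 (-1.51 ± 0.35), all log2 fold changes that passed at an adjusted p of 0.00308 or less. Its relative uggt-2 rose, to 6.94 ± 2.18 CPM in fed high-salt larvae, against 2.68 ± 0.522 CPM in fed low-salt larvae (1.35 ± 0.45, adjusted p = 0.0254). For salt without food 2 of the 7 fell, stt-3 and ostb-1, and for lack of food at 100 mM NaCl 2 fell, ostb-1 and ribo-1. Without unfed high-salt A and fed high-salt C these counts were 0 and 6, and under upper-quartile scaling each was 1.

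Of 8 ER co-chaperone and oxidase genes tested, 6 fell with salt in fed larvae, 2 with salt in unfed larvae and 1 for lack of food at 100 mM NaCl, the last being 2 without unfed high-salt A and fed high-salt C. C14B9.2, a predicted disulfide isomerase, had 54.3 ± 4.75 CPM in fed high-salt and 318 ± 9.54 CPM in fed low-salt larvae (log2 fold change -2.55 ± 0.29, adjusted p = 9.88e-06). Dnj-27, a J protein of the ERdj5 type, fell with salt in fed larvae (-2.38 ± 0.31, adjusted p = 3.26e-05) and in unfed larvae (-2.10 ± 0.30, adjusted p = 0.000167). T14G8.3, an HSP110-type chaperone gene, fell with salt in fed larvae (-2.10 ± 0.31, adjusted p = 9.55e-05) and for lack of food at 100 mM NaCl (-1.35 ± 0.30, adjusted p = 0.0158).

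ER-associated degradation, which pulls misfolded proteins out to the proteasome, had 12 genes tested, of which 8 fell with salt in fed larvae, 3 with salt in unfed larvae and 1 for lack of food at 100 mM NaCl, the last being 4 without unfed high-salt A and fed high-salt C. Cdc-48.2 and cdc-48.1, the ATPases that extract the proteins and that also act elsewhere in the cell, had log2 fold changes of -2.65 ± 0.31 and -2.11 ± 0.30 with salt in fed larvae (adjusted p = 1.30e-05 and 6.98e-05). The ubiquitin ligase genes sel-11 and marc-6 had log2 fold changes of -0.30 ± 0.25 and -0.22 ± 0.26 that did not pass (adjusted p = 0.354 and 0.518).

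Of 5 sensor and signal genes of the unfolded protein response tested, 2 fell with salt in fed larvae and 0 passed for salt or food otherwise among the comparisons of 1 factor. They were atf-4, the translation-controlled transcription factor (-1.20 ± 0.25, adjusted p = 0.00149), and rtcb-1, the RNA ligase (-1.14 ± 0.23, adjusted p = 0.00124). Ire-1 had 49.5 ± 6.21 CPM in fed high-salt and 72.7 ± 12.1 CPM in fed low-salt larvae (-0.56 ± 0.31, adjusted p = 0.161), and atf-6 and pek-1 had log2 fold changes of -0.02 ± 0.25 and -0.03 ± 0.37 (adjusted p = 0.947 and 0.961). In fed high-salt larvae compared with unfed low-salt larvae 1 of the 5 fell, where 14.5% of all genes tested fell. Under upper-quartile scaling, or with ribosomal RNA genes left out, 0 of the 5 fell there.

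Of the genes for hydroxylation of collagen in the ER 5 were tested, among them dpy-18 and phy-2, whose products form the prolyl 4-hydroxylase with PDI-2, and the lysyl hydroxylase gene let-268. Salt with food lowered 3, phy-2 (-2.16 ± 0.35), let-268 (-2.10 ± 0.43) and dpy-18 (-1.88 ± 0.31), log2 fold changes with an adjusted p of 0.00129 or less. Salt without food lowered dpy-18 and let-268, and lack of food at 100 mM NaCl lowered phy-2 and dpy-18. Under upper-quartile scaling salt without food lowered 1 of the 5. Without unfed high-salt A and fed high-salt C lack of food at 100 mM NaCl lowered 3. Phy-2 passed the interaction (2.21 ± 0.48, adjusted p = 0.0313), a call that was lost under upper-quartile scaling, with 31.6 ± 12.6 CPM in unfed high-salt, 20.3 ± 3.51 CPM in fed high-salt, 30.3 ± 13.4 CPM in unfed low-salt and 90.4 ± 3.36 CPM in fed low-salt larvae. Of 3 ER calcium genes, the pump gene sca-1 and the channel genes itr-1 and unc-68, 0 passed in any of the 6 comparisons, and their unadjusted p for salt with food was 0.0845 or more. Under upper-quartile scaling 1 of the 3 was called higher for salt with food and in fed high-salt larvae compared with unfed low-salt larvae.

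Chaperones of the cytosol and mitochondria were arranged otherwise. Of 16 tested, 1 rose and 2 fell with salt in fed larvae, 5 rose and 0 fell with salt in unfed larvae, and 0 rose and 9 fell for lack of food at 100 mM NaCl. Under upper-quartile scaling the first pair of counts was 5 and 1, and the second was 10 and 0. Without unfed high-salt A and fed high-salt C the count for salt in unfed larvae was 9 higher. The mitochondrial chaperone gene hsp-60 fell with salt in fed larvae (log2 fold change -2.49 ± 0.43, adjusted p = 0.000376), while hsp-90, the cytosolic relative of enpl-1, rose (0.76 ± 0.29, adjusted p = 0.0472), a call that was lost with ribosomal RNA genes left out, where 0 of the 16 rose. Hsp-110, a cytosolic relative of T14G8.3, had 609 ± 330 CPM in unfed high-salt, 703 ± 173 CPM in fed high-salt, 124 ± 12.8 CPM in unfed low-salt and 604 ± 77.1 CPM in fed low-salt larvae. In fed high-salt larvae compared with unfed low-salt larvae 9 of the 16 rose and 0 fell, where 7.04% of all genes tested rose. Under upper-quartile scaling 14 of the 16 rose, where 2226 of all genes rose in place of 1269.

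**Figure D4:**
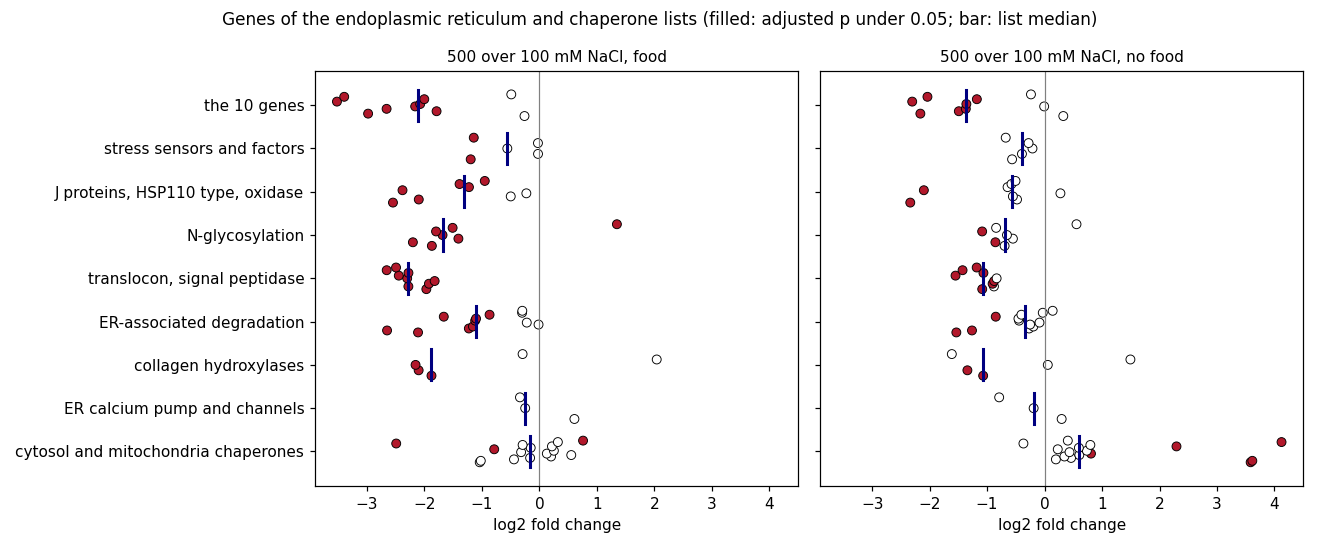
Log2 fold changes (x axis) of every gene tested in the 10 ER genes and in 8 further lists (rows), for 500 over 100 mM NaCl with food (left) and without food (right). Filled points passed at an adjusted p under 0.05 and vertical bars are list medians, -2.12 and -1.37 for the 10 genes, -2.28 and -1.06 for the translocon list and -0.16 and 0.60 for cytosolic and mitochondrial chaperones.

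Tissue markers were counted beside the same shares of all genes. Of 6 intestine markers, 4 fell and 1, elt-2, rose with salt in fed larvae. The counts were equal for salt in unfed larvae, with ifb-2 in place of pept-1, and 0 changed for lack of food at 100 mM NaCl. With ribosomal RNA genes left out, or without unfed high-salt A and fed high-salt C, 2 fell with salt in unfed larvae. Their summed level ran from 436 to 878 CPM in unfed high-salt, 717 to 876 CPM in fed high-salt, 932 to 1560.5 CPM in unfed low-salt and 1336 to 1830.1 CPM in fed low-salt larvae. Of 6 markers of body wall muscle and pharynx, 3 rose with salt in fed larvae and 1 in unfed larvae, and 0 fell in either. Without unfed high-salt A and fed high-salt C 4 rose with salt in unfed larvae and 2 fell for lack of food at 100 mM NaCl. Their sums ran from 5572 to 12877 CPM in unfed high-salt, 12921 to 17740.0 CPM in fed high-salt, 3684 to 6909 CPM in unfed low-salt and 6046 to 10504 CPM in fed low-salt larvae. Of 6 epidermis markers 2 rose and 2 fell with salt, in fed and in unfed larvae, and with ribosomal RNA genes left out 1 rose and 1 fell in unfed larvae. The 6 had sums of 328 to 619 CPM in unfed high-salt, 549 to 938 CPM in fed high-salt, 626 to 919.7 CPM in unfed low-salt and 804 to 943 CPM in fed low-salt larvae. Among those that fell was the cuticle collagen gene dpy-7, with 6.71 CPM in fed high-salt and 247 CPM in fed low-salt larvae on average (log2 fold change -5.18 ± 0.65, adjusted p = 3.71e-05). Of 6 neuron markers 1, ric-19, rose with salt in fed larvae and 1, egl-3, rose for lack of food at 100 mM NaCl, while under upper-quartile scaling 4 rose with salt in fed larvae. Their sums ran from 780.05 to 1505 CPM in unfed high-salt, 1244 to 1450.2 CPM in fed high-salt, 1369 to 1785.5 CPM in unfed low-salt and 870.4 to 1061 CPM in fed low-salt larvae. Of 9 embryo and germline markers 6 were tested, and the germ granule genes glh-1 and pgl-1 fell with salt in fed larvae and for lack of food at 100 mM NaCl. With salt in unfed larvae 1 of the 6 fell, and 2 of the 5 tested without unfed high-salt A and fed high-salt C. In the interaction 1 of the 6 passed as higher, where 1.56% of all genes tested did. Those 6 summed to 159.7 to 202 CPM in unfed high-salt, 180.5 to 237 CPM in fed high-salt, 165 to 242 CPM in unfed low-salt and 363 to 452 CPM in fed low-salt larvae, while the embryonic endoderm gene end-1 had 0 to 7 reads per library. The 3 adult markers tested summed to 25.4 CPM or less in every library. No marker of intestine, muscle, epidermis or neurons was at 0 in any library. The part of these tissue markers in the differences of the ER genes was not tested.

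Likeness to each of the 10 genes was measured as Pearson's r of log2 CPM over the 12 libraries among 8477 genes whose mean was 10 CPM or higher, as a description with no test. Tba-2 (r = 0.993) was most like hsp-3, ech-6 most like pdi-2 (r = 0.992) and pdi-6 (r = 0.992), zipt-7.2 most like pdi-1 (r = 0.990), ZK899.2 most like pdi-3 (r = 0.990), pas-6 most like crt-1 (r = 0.988), and ltah-1.1 most like enpl-1 (r = 0.986). Hsp-3, enpl-1, crt-1 and the disulfide isomerase genes each had 584 to 1012 others at an r of 0.9 or more. Cnx-1, xbp-1 and hsp-4 had 26, 24 and 52 such genes. The closest to hsp-4 were C17C3.1 (r = 0.968) and tent-5 (r = 0.955), the closest to xbp-1 was nipi-3 (r = 0.940), and the closest to cnx-1 were cct-6 (r = 0.973) and cct-2 (r = 0.969), subunit genes of the cytosolic chaperonin. Between members, cnx-1 had an r of 0.279 with pdi-2 and 0.337 with crt-1, and 0.759 with xbp-1.

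The authors' deposited table, made with edgeR's exact test, called the same number of the 10 genes for salt with food (8), salt without food (7) and lack of food at 500 mM NaCl (0) at a false discovery rate under 0.05. For lack of food at 100 mM NaCl the authors' deposited table called 6, with pdi-3 and cnx-1 beside the 4 above.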

How the data were processed

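Whole-larva mRNA was sequenced in 12 libraries. The kit was non-directional, per the labels' protocols. The authors deposited raw read counts per gene, for which the submitters' processing notes name Bowtie 1.1.2 and HTSeq. The HTSeq settings and the genome build are not given in the sources used here, so no coordinates are printed. The authors' deposited workbook holds log2 fold changes, log2 CPM, p-values and false discovery rates from edgeR's exact test. Another 24 per-sample columns of that workbook were not used.

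Counts were tested in R 4.3.3 with edgeR 4.0.16: filterByExpr (minimum count 10, minimum total 15), TMM factors, 1 robust quasi-likelihood model of all 12 libraries and 4 groups, two-sided F-tests and Benjamini-Hochberg adjustment within each of 6 comparisons. SE is the log2 fold change divided by the square root of F. The steps were tested on simulated data. Exon lengths and overlaps came from the WBcel235 annotation, matched by gene identifier. The 5 summary lines were left out. Depth ranged from 5613260 to 76542711 reads on genes; counting error is largest in unfed high-salt A and fed high-salt C.

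The 10 genes, the lists and the markers were chosen with earlier results of these data known. Named genes are all 10, up to 4 called genes of each list with the smallest p, and the 3 genes most like each of the 10; others named were chosen after their values were seen. Alternatives were a replicate block, upper-quartile and RLE scaling, DESeq2 1.42.0, the exact test of edgeR, all genes without a filter, only the 2 groups compared, ribosomal RNA genes left out, each library left out, and unfed high-salt A and fed high-salt C left out together. Recounting the lists under scalings and without those libraries was added after seeing the data.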

Additional observations from a re-analysis of the deposited data

Results flagged for a closer look

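The salt difference of hsp-4 departed between unfed and fed larvae by 2.1546 on the log2 scale (SE 0.41, edgeR's quasi-likelihood test of the interaction, adjusted p = 0.0181), a difference between groups under the same contrast. In unfed larvae the salt difference was -0.01 ± 0.29 and in fed larvae -2.16 ± 0.30. The level in fed low-salt larvae was 229 ± 53.5 CPM, against 59.0 ± 19.6 CPM in unfed high-salt, 51.0 ± 9.84 CPM in fed high-salt and 59.4 ± 10.4 CPM in unfed low-salt larvae (SD, n = 3 each).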

How the results depend on the processing

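Of 1240 log2 fold changes of the 10 genes under alternatives, 1126 kept their direction and side of the threshold, 53 lost a call, 32 gained one and 29 reversed, none of the last called in the first place and none above 0.1565 in size where they reversed; the cause was not tested. For salt with food the 10 genes kept 8 calls throughout. For salt without food, where 3230 genes and 7 of the 10 were called, only the 2 groups compared gave 1811 and 5. Leaving out 1 library gave 2212 to 4209 and 5 to 7. At 100 mM NaCl, for lack of food, where 1384 genes and 4 of the 10 were called, DESeq2 gave 2658 and 8, the exact test 2252 genes, no count filter 2 of the 10, only the 2 groups 3524 and 8, leaving out unfed high-salt A and fed high-salt C 3238 and 8, and leaving out 1 library 218 to 2989 and 1 to 9. For lack of food at 500 mM NaCl, where 14 genes were called, the replicate block gave 30, DESeq2 94, the exact test 82, no count filter 207, only the 2 groups 1, leaving out both libraries 9, and leaving out 1 library 0 to 32. For fed high-salt compared with unfed low-salt larvae, leaving out 1 library gave 2497 to 5201 genes in place of 3885, and 4 to 7 of the 10. For the interaction, with 360 genes and 1 of the 10, the replicate block gave 585 genes, DESeq2 1225 and 2, no count filter 1019, leaving out both libraries 630, and leaving out 1 library 63 to 967 and 0 to 4. Leaving out 1 library for salt with food gave 4823 to 8703 genes in place of 6898.

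Reversed log2 values, all of differences not called, were as follows. Cnx-1 for salt with food was 0.1507 under upper-quartile factors. Hsp-4 for salt without food was 0.0551 with DESeq2, 0.0546 with RLE factors, 0.1366 with upper-quartile factors, 0.0646 with only the 2 groups, 0.0531 without rRNA genes, 0.1565 without both libraries, and -0.3395 to 0.1183 without 1 library. Xbp-1 in that comparison was 0.0109 without both libraries. For lack of food at 500 mM NaCl pdi-1 was 0.013 and pdi-2 -0.0484 without both libraries, and without 1 library hsp-4 ran from -0.1023 to 0.3952, pdi-1 from -0.1777 to 0.1203, pdi-2 from -0.0275 to 0.2032 and crt-1 from -0.4271 to 0.0727. For fed high-salt compared with unfed low-salt larvae xbp-1 was -0.0036 with the replicate block, -0.0867 with no count filter and -0.1116 to 0.1779 without 1 library. For the interaction xbp-1 was -0.033 with upper-quartile factors and -0.1201 to 0.4657 without 1 library.

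Replicate letters were not taken to pair the libraries, since the design text names no block. Deviations of same-letter libraries correlated above 0.1 in 7 of 18 pairs (-0.0942 to 0.352, median 0.0447). Those of the 36 pairs with other letters ran from -0.332 to 0.225, with a median of -0.0274. Of 36 best matches 17 had their own letter, where letters with no link would give 12, a hint from the data and not from the design. With the letter as a replicate block 8, 7, 4, 0, 6 and 1 of the 10 genes were called in the 6 comparisons. In the same order 7351, 3410, 1673, 30, 4098 and 585 of all genes were called. The loss among the 10 was pdi-3 in fed high-salt compared with unfed low-salt larvae (adjusted p = 0.0558). Upper-quartile factors moved the median of all genes for salt with food from 0.12 to 0.55 and the calls to 4750 higher and 2705 lower, against 2905 and 3993 under TMM, and the median of the 10 genes to -1.70. For salt without food they gave 1783 higher and 1750 lower, against 1212 and 2018, at 100 mM NaCl without food 1099 and 548, against 643 and 741, for fed high-salt compared with unfed low-salt larvae 2226 and 2049, against 1269 and 2616, and for the interaction 185 and 194, against 282 and 78.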
